A study of Mus musculus with 10 samples.

Results

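The sites described here are accessible regions of chromatin whose middle lay inside a protein-coding exon, away from any promoter. A listed site was taken when it was on chromosomes 1 to 19, lay more than 1 kb from every annotated transcript start and had its middle in a coding exon of a protein-coding gene, and sites inside Ash2l were left out. This gave 1299 of the 153924 listed sites, or 0.844% (95% Wilson interval 0.799 to 0.891), and 1.04% of the 124339 distal sites, meaning all those over 1 kb from a start. A further 2755 sites also had their middle in coding sequence, 68.0% of 4054 such sites, but lay within 1 kb of a start. No qualifying site was found in Ash2l, which held 4 sites of any kind. Taking only sites with at least 50% of their bases in coding exons would have given 676 sites, and taking every distal site that touched a coding exon would have given 5316.

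The list came from ATAC-seq, in which the transposase Tn5 cuts open chromatin, on NG3 cells, 1 clone of immortalized mouse embryo fibroblasts (iMEF). All groups shared the same genotype: an inducible Cre-ER recombinase had removed an exon of the endogenous Ash2l alleles, and a lentiviral construct supplied human ASH2L with an FKBP tag and HA tags (FKBP-HA2-ASH2L). The 5 groups, each of 2 libraries, were cells without dTAG-13, a compound that brings the FKBP-tagged protein to degradation, and cells kept with it for 30 min, 4 h, 8 h or 24 h. The study's methods name ethanol for the control cells, whereas the labels give them as without dTAG treatment. The list pools all 10 libraries and gives only the position of each site. It therefore allows no comparison of treated with untreated cells, carries no replicate error and leaves the sequencing depth unknown. All intervals below are 95% intervals that cover the sampling of sites only, and sites are not independent replicates.

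As background, a coding exon has to keep a reading frame, and its sequence is therefore less free to change than that of an intron. Exons are on average richer in G and C than the introns beside them and often carry a well-placed nucleosome. Enhancers and binding sites of transcription factors can nevertheless lie within coding sequence, where the same bases specify amino acids and are contacted by a protein. AP-1, a pair of Fos and Jun family proteins, and CTCF, a zinc finger protein that organizes chromatin loops, are known for binding open distal sites in fibroblasts.

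Few sites followed the outline of an exon. The edges of 4 sites (0.308%, 0.120 to 0.789) were both within 10 bp of the boundaries of a single coding exon. They included sites in Akna, an AT-hook protein, Gc, the vitamin D-binding protein of plasma, and Pkhd1l1, a large membrane protein. The sites in Akna at chr4:63377654-63377858 (mm10) and in Gc at chr5:89438254-89438456 were 205 and 203 bp wide over exons of 209 and 203 bp. Both are shown as close fits between an accessible region and an exon, printed on the coding strand (the minus strand in each) with exon bases in capitals.
Akna: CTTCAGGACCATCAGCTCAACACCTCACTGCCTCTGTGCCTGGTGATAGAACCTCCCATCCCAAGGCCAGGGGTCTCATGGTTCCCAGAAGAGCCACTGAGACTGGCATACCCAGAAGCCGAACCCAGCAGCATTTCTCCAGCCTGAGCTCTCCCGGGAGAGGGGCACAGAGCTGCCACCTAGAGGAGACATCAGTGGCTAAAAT
Gc: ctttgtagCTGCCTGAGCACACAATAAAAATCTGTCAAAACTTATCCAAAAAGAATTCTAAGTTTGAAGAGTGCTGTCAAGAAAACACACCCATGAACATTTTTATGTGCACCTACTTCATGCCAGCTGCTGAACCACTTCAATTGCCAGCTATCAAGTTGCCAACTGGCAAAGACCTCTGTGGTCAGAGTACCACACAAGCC
Gc had no site within 1 kb of any of its starts, whereas Akna and Pkhd1l1 had one. At a tolerance of 50 bp, 48 sites (3.70%, 2.80 to 4.87) matched an exon at both edges.

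Most sites reached beyond the coding part of their exon. Only the coding part was counted as exon here, so that noncoding sequence of the same exon counted as flanking sequence. Where transcripts differed, the coding exon closest to the site in extent was used. Of the 1299 sites, 830 (63.9%) held the whole exon and some flanking sequence, 285 (21.9%) crossed 1 boundary and 184 (14.2%) lay within the exon. Sites that crossed 1 boundary did so at the 3′ end of the coding exon in 165 cases and at the 5′ end in 120. Ends that border noncoding exon sequence were not counted apart. Coding bases made up a median of 49.4% of a site (45.2 to 51.5), and 191 sites were wholly coding. The exon under the middle had a median length of 193 bp (186 to 205), and since longer exons hold more possible middles, exon lengths were compared by density. It was 50.4 sites per Mb of coding exon (42.7 to 59.0) in exons under 100 bp, 67.0 (56.9 to 78.4) from 500 to 999 bp and 53.2 (46.3 to 60.8) from 1000 bp on. Sites had a median width of 560 bp (529 to 589), with a range from 178 to 2609 bp. The median width of distal sites in introns of coding genes, 567 bp (562 to 572), lay within that interval.

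The density of sites in coding exons was compared with that of other sequence, using bases more than 1 kb from a start. Coding exons held 54.2 sites per Mb (exact Poisson interval 51.3 to 57.2), introns of coding genes 65.7 (65.1 to 66.2) and intergenic sequence 48.1 (47.7 to 48.5). The density in coding exons was thus 0.825 of that in introns (0.781 to 0.871). Noncoding parts of the exons of coding genes had 62.6 sites per Mb (60.2 to 65.1). Intronic sequence close to exons did not share the density of introns as a whole. Within 1 to 50 bp of a coding exon it held 52.8 sites per Mb (48.7 to 57.1), which overlaps the interval for coding exons, and the density rose with distance to 71.9 (69.3 to 74.6) at 1501 to 2000 bp. The coding exons were therefore level with the intronic sequence beside them and below that farther away. At a distance of 3 kb from starts the ratio of coding exons to introns was 0.793 (0.743 to 0.847). The densities by distance from an exon were not recounted at 3 kb. Sites had to lie wholly beyond the limit whereas bases were counted singly, and the part of this in the rise was not tested.

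**Figure D1:**
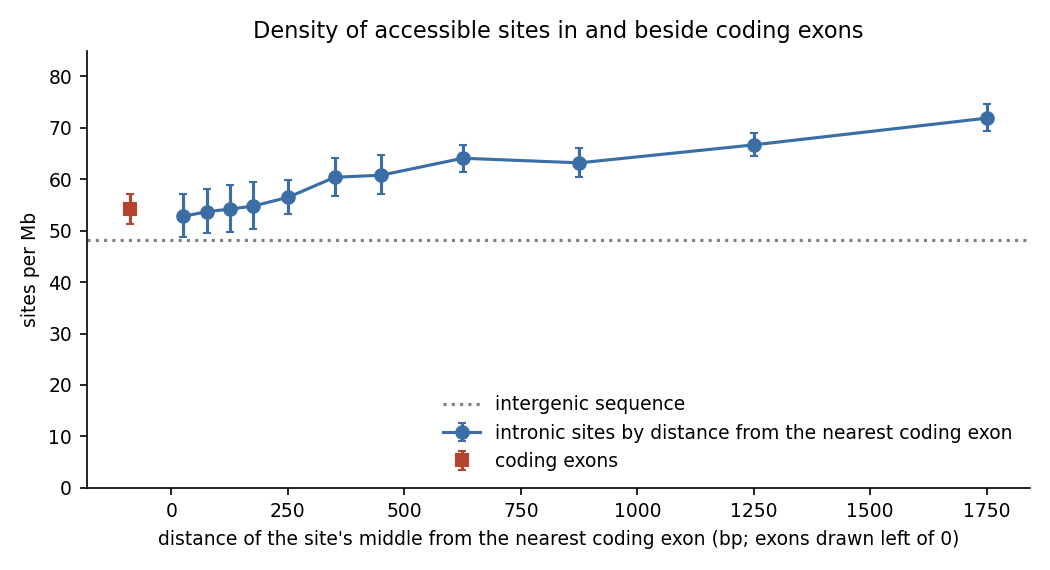
Sites per Mb (y axis) in coding exons (square) and in introns by distance of the site's middle from the nearest coding exon in bp (circles, x axis), with 95% Poisson intervals. The dotted line is the density in intergenic sequence. Coding exons, at 54.2 sites per Mb, sit level with introns within 50 bp of an exon, at 52.8, and below introns 1501 to 2000 bp away, at 71.9.

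Genes were then divided by whether any listed site lay within 1 kb of one of their starts, here named a promoter site. In genes with a promoter site, coding exons held 56.1 sites per Mb (52.9 to 59.6) and introns 70.6 (70.0 to 71.2). In genes without one, coding exons held 46.5 (40.2 to 53.5) and introns 30.0 (28.9 to 31.1). Introns of genes with a promoter site thus had 2.35 times (2.27 to 2.44) the density of those without, and coding exons 1.21 times (1.04 to 1.41). The order of exon and intron was opposite in the 2 kinds of gene, with an exon to intron ratio of 0.795 (0.749 to 0.844) with a promoter site and of 1.55 (1.34 to 1.79) without. These ratios differed by a factor of 1.95 (1.67 to 2.28). They were not recomputed without sites that closely match another place in the genome. Some of those lay in genes without a promoter site, such as Olfr376 and Apol7b. Sequence where genes of both kinds overlap was left out of these densities, which rest on 1094 and 195 coding-exon sites. Of all 1299 sites, 199 (15.3%) lay in genes without a promoter site. Their median width was 598 bp (497 to 690), and that of the other 1100 sites was 552 bp (524 to 585).

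Sites were denser toward the end of the coding sequence. In the principal transcript of each gene, 830 sites lay in a middle coding exon, 317 in the last, 46 in the first and 52 in a gene with a single coding exon, and 54 were not in its coding exons. Last coding exons held 74.7 sites per Mb (66.7 to 83.4) and middle ones 49.2 (45.9 to 52.7). Their ratio was 1.52 (1.33 to 1.73). Last exons exceeded middle exons of like length too. Below 200 bp the ratio was 1.33 (1.03 to 1.71), from 200 to 499 bp it was 1.82 (1.40 to 2.37) and from 500 bp on it was 1.47 (1.15 to 1.88). Along the coding sequence cut into 5 equal parts, the density was 41.6 sites per Mb (35.2 to 48.8) in the first, 48.2 (42.2 to 54.8) in the third and 66.9 (60.1 to 74.3) in the fifth. Sites over last exons were also richer in GC, with a median of 59.5% (58.5 to 60.5) against 52.5% (52 to 53.5) over middle exons, and the part of GC in the difference was not tested. A site had to lie wholly beyond 1 kb from a start whereas bases were counted singly, which lowers densities near starts, and with a distance of 3 kb the ratio of last to middle exons was 1.38 (1.18 to 1.62). The density in the 5 parts was not recounted at 3 kb, and the counted bases of an exon were spread evenly over its parts.

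**Figure D2:**
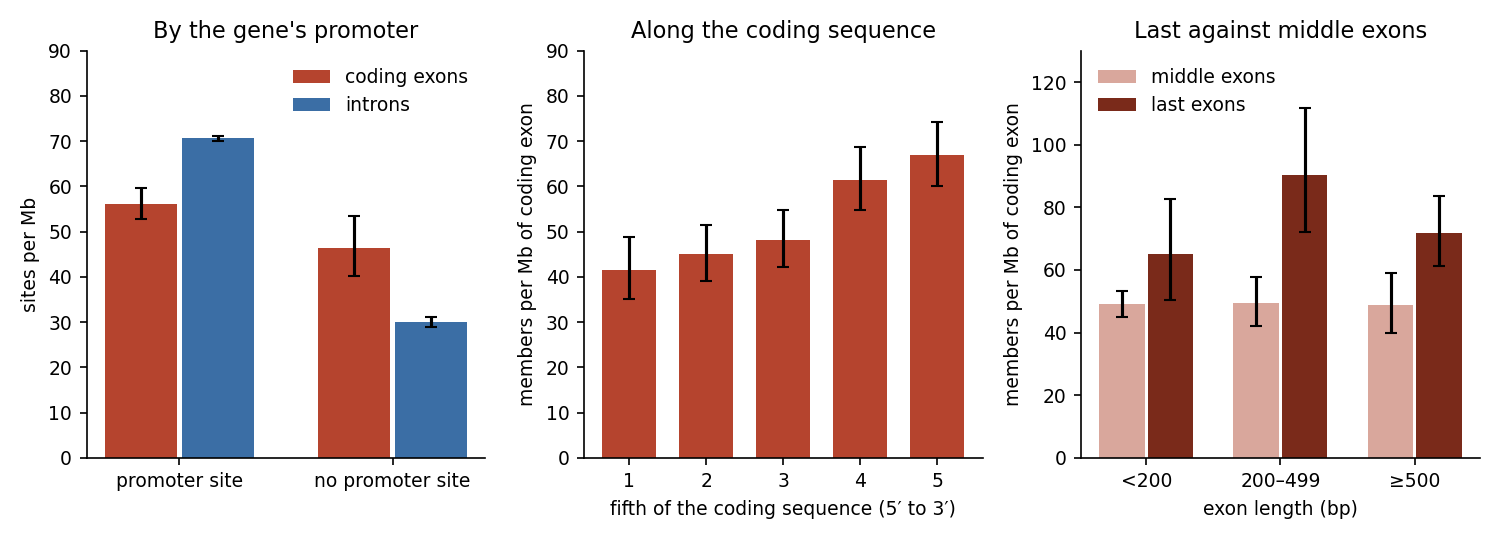
Sites per Mb with 95% Poisson intervals (y axes). Left, coding exons and introns of genes with and without a promoter site. Middle, coding-exon sites in 5 equal parts of the coding sequence from 5′ to 3′, rising from 41.6 to 66.9. Right, middle and last coding exons by exon length in bp, with the last exons higher in each length class.

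The sequence of these sites was compared over 200 bp at the middle of each site. The median GC content was 54.5% (54 to 55), compared with 45% (45 to 45.5) for intronic sites and 49% (49 to 49) for the 129500 coding exons that no site touched. Untouched exons were read over 200 bp at their middle. Such windows often reached past the exon, since all coding exons over 1 kb from a start had a median length of 125 bp (125 to 126). Exons under the middle of a site had 193 bp (186 to 205). The part of exon length in the contrasts with untouched exons was not tested. The ratio of observed to expected CpG had a median of 0.357 (0.341 to 0.375) in coding-exon sites, 0.170 (0.168 to 0.172) in intronic sites and 0.313 (0.311 to 0.314) in untouched exons. A window was counted as CpG-rich when its GC content was over 50% and this ratio over 0.6. Of the coding-exon sites, 245 (18.9%, 16.8 to 21.1) were CpG-rich, compared with 4.34% (4.23 to 4.45) of untouched exons, 0.693% (0.627 to 0.767) of intronic sites and 1.44% (1.35 to 1.54) of intergenic sites. Intronic sites within 200 bp of a coding exon, the nearest class by position, were CpG-rich in 2.05% (1.55 to 2.70), which is 16.8 percentage points less (14.7 to 19.1). Soft-masked repeats filled at least 50% of the window in 6 coding-exon sites (0.462%) and in 7.70% of intronic sites.

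Seen from the exons, the share of coding exons that held the middle of such a site rose with GC. It was 0.326% (0.259 to 0.408) of exons below 40% GC, 0.803% (0.708 to 0.912) at 50 to 55% and 10.5% (9.09 to 12.1) from 65% on. The exons from 65% GC on also had a longer median length, 260.5 bp, than those below 40%, 94 bp. How far the sites differed in CpG is shown by the middle 200 bp of the site with the highest share of CpG, in the last coding exon of Otud7a, a deubiquitinase gene (chr7:63758528-63758727), and of a site of 43% GC inside the long exon of Ahnak, which encodes a large scaffold protein (chr19:9003874-9004073), taken because it lacked CpG. Both are on the plus strand of mm10, and CpG is in capitals.
Otud7a: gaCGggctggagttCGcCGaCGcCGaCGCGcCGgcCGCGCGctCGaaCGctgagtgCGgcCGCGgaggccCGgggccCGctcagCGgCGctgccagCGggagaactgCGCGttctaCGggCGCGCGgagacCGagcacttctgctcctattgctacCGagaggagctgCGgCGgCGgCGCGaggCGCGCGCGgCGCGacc
Ahnak: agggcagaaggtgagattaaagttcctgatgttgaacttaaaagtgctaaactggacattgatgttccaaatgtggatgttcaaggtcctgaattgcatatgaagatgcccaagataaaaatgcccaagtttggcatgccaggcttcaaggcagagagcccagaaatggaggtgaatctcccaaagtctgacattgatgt
The Otud7a window contained 40 CpG and the Ahnak window 0. The next highest CpG shares were in the last coding exons of Snx20, a sorting nexin gene, and Zfp771, a zinc finger gene, with 19.6% of dinucleotide steps in each. A site in coding exon 11 of Srrm3, a splicing factor gene, had the same rounded share.

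**Figure D3:**
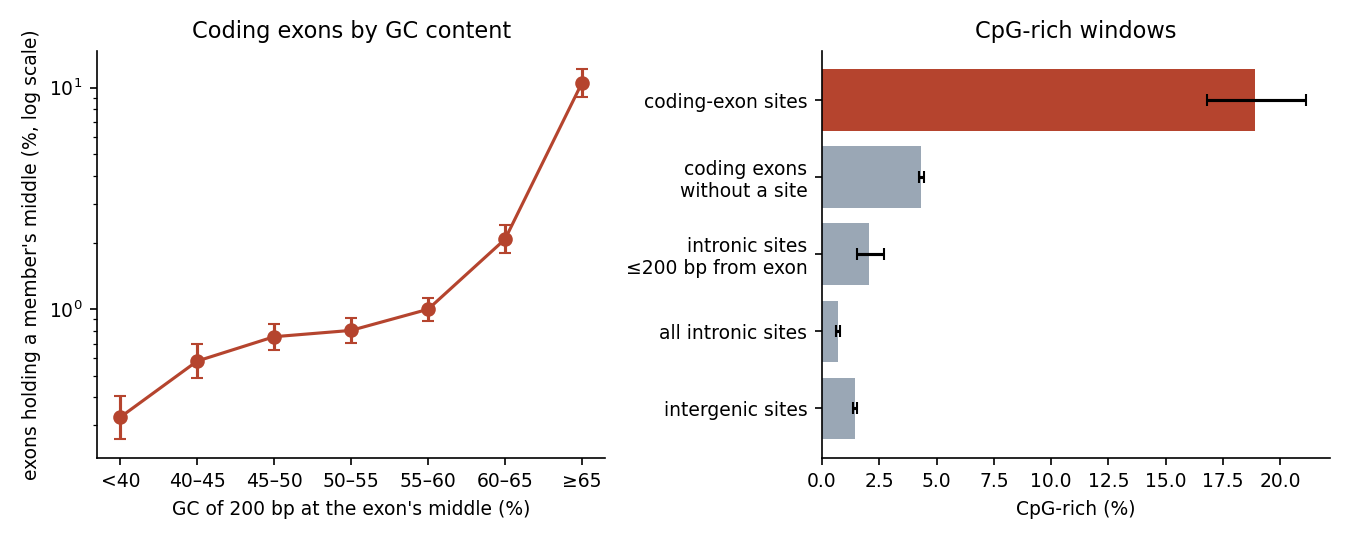
Left, share of coding exons that held the middle of a site (y axis, log scale, in %) by the GC content of 200 bp at the exon's middle (x axis, in %), with 95% Wilson intervals. Right, share of CpG-rich windows (x axis, in %) among coding-exon sites, coding exons without a site, and intronic and intergenic sites. Coding-exon sites reach 18.9% and each of the other groups stays at or below 4.34%.

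Motif matches were counted on both strands in the same windows. AP-1 (TGACTCA or TGAGTCA) was matched in 109 coding-exon sites (8.39%, 7.0 to 10.0), in 16.1% (15.8 to 16.4) of intronic sites and in 2.62% (2.53 to 2.71) of untouched coding exons. Coding-exon minus intronic sites gave a difference of -7.71 percentage points (-9.14 to -6.05), and coding-exon sites minus untouched exons gave 5.77 points (4.38 to 7.41). Intronic sites within 200 bp of a coding exon matched AP-1 in 13.7% (12.4 to 15.2). Coding-exon sites minus these gave -5.34 points (-7.35 to -3.23). The CTCF consensus was matched in 50 sites (3.85%, 2.93 to 5.04), 2.86% (2.72 to 3.0) of intronic sites and 0.0772% (0.0635 to 0.0939) of untouched exons. Intronic sites within 200 bp of a coding exon carried it more often, at 7.12% (6.15 to 8.23), and intronic sites over 2 kb from a coding exon less often, at 2.09% (1.95 to 2.24).

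RUNX (TGTGGTT) and TEAD (AGGAATG or TGGAATG), motifs of factors that act with AP-1 in fibroblasts, lay below intronic sites as well. The RUNX motif was matched in 4.85% of coding-exon sites and 9.04% of intronic sites, and the TEAD motif in 9.70% and 13.2%. Motifs rich in G and C were higher in coding-exon sites than in intronic sites. SP/KLF (GGGCGGG) was matched in 4.85% against 1.51%, ETS (CCGGAAG) in 3.0% against 0.776%, and EGR in 1.31% against 0.0830%. In untouched exons the SP/KLF motif was matched in 1.57%, the ETS motif in 2.20% and the EGR motif in 0.105%. For the palindromes of E-box and CREB proteins and for NFI, the interval of the difference from intronic sites included 0. These shares depend on the window, since over whole sites AP-1 was matched in 237 sites (18.2%) and over the middle 100 bp in 3.77%. The windows also differed in median GC content, 54.5% in coding-exon sites and 45% in intronic sites. The part of GC in the motif contrasts was not tested.

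**Figure D4:**
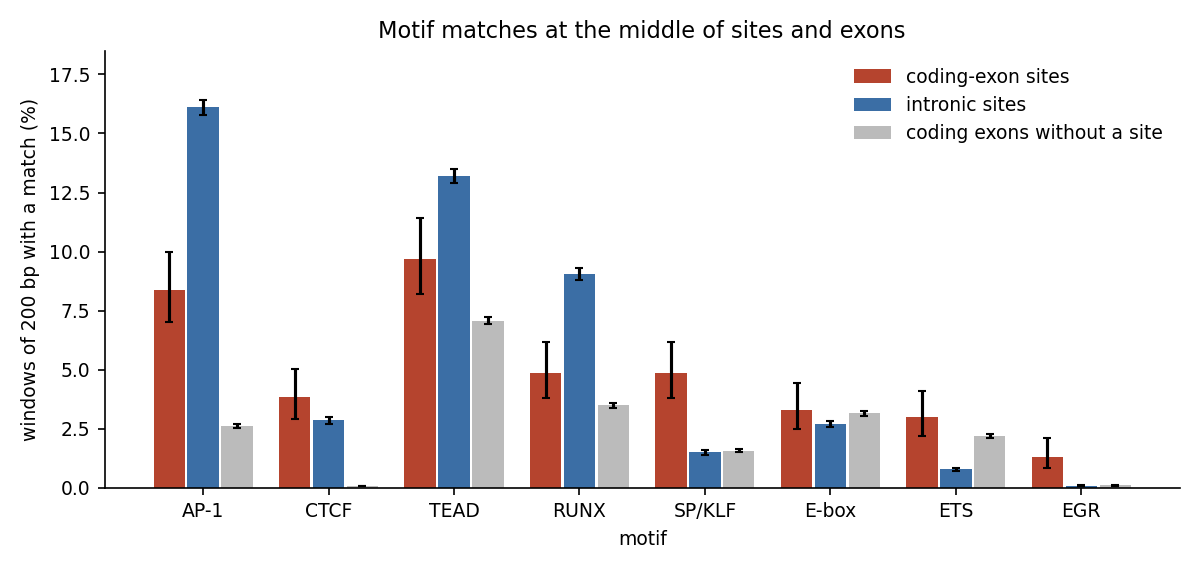
Share of 200-bp windows with a motif match (y axis, in %) for 8 motifs (x axis) in coding-exon sites, intronic sites and coding exons without a site, with 95% Wilson intervals. AP-1 matches in coding-exon sites (8.39%) lie between untouched exons (2.62%) and intronic sites (16.1%), whereas SP/KLF, ETS and EGR matches are highest in coding-exon sites.

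Within coding sequence a motif has a reading frame. The AP-1 motif begins with TGA, which is a stop codon when it starts at the first base of a codon. Over the whole sites, 91 AP-1 matches lay within 1 coding exon of the principal transcript, of which 0 began at codon position 1, 33 at position 2 and 58 at position 3. In untouched exons the corresponding numbers were 0, 997 and 1217 of 2214 matches. Matches at position 3 are shown from Kmt2d, a histone H3 lysine methyltransferase gene (chr15:98853457-98853499, minus strand), Dst, which encodes the cytolinker dystonin (chr1:34190245-34190287, plus strand), and Nfe2, a transcription factor gene whose last exon lies under a 2208 bp site (chr15:103249107-103249149, minus strand). A match at position 2 is shown from Vps13b, a lipid transfer protein gene (chr15:35878636-35878678, plus strand). Each is on the coding strand with the motif in capitals.
Kmt2d: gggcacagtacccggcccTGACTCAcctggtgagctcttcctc
Dst: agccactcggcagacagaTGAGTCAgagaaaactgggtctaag
Nfe2: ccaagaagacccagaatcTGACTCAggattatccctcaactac
Vps13b: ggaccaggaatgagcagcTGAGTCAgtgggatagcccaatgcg
Mki67, the gene of a proliferation marker with repeated units in its long exon, had 2 sites with 3 matches in all, each at codon position 3.

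CTCF matches began at each codon position. Of the 84 matches over whole sites, 17 lay in 1 coding exon on the coding strand and 22 on the other strand. Those on the coding strand began 4 times at codon position 1, 5 times at position 2 and 8 times at position 3. The matches nearest the middle of a site included those in H3f3a, which encodes a histone H3 variant (chr1:180811808-180811855, minus strand), Cldn12, a claudin gene with a single coding exon (chr5:5508002-5508049, minus strand), and D6Wsu163e (chr6:126955901-126955948, plus strand). They are printed on the coding strand with the match in capitals.
H3f3a: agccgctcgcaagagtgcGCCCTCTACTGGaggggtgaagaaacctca
Cldn12: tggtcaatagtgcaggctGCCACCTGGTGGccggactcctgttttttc
D6Wsu163e: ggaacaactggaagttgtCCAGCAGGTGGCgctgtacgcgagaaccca
The sites around them were 353, 477 and 732 bp wide, and the site of Cldn12 lay wholly within its exon.

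The 1299 sites fell in 1170 genes, which is 6.42% (6.07 to 6.78) of the 18232 protein-coding genes with coding bases more than 1 kb from a start. A single site was found in 1061 genes, and 18 genes had 3 or more. Since a longer coding sequence holds more possible middles, gene lists are also given as sites per Mb of coding exon. Ahnak had 6 sites within its exon of 16623 bp, between 179 and 782 bp wide. Plec, the gene of the cytolinker plectin, had 5 sites, of which 3 were in its last and 1 in its preceding coding exon. Zan, a sperm membrane protein gene without a promoter site, also had 5, and Ttn, the gene of the muscle protein titin, had 4. The 14 genes with 3 sites included Adamts16, Adgrv1, Apc2, Col12a1, Col3a1, Col5a2, Dst, Fam186a, Kmt2d, Nup210l, Sptbn4, Srrm3 and Vps13b.

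Collagen genes, whose products form the fibrils of the matrix that fibroblasts lay down, were counted over a list of 20, which leaves out other collagen genes. All 20 had a promoter site, and 6 (30%, 14.5 to 51.9) had a coding-exon site, with 12 sites in all. This was 131.0 sites per Mb of coding exon (67.7 to 228.8), compared with 54.1 (51.2 to 57.1) for all genes. The sites in Col3a1, a fibrillar collagen gene, were 205, 278 and 292 bp wide and each held a whole exon of 54, 108 and 108 bp. In Col5a2, another fibrillar collagen gene, the sites were 229, 302 and 546 bp wide, and the widest site of the list, of 1374 bp, lay over coding exon 43 of 51 in Col1a1. Sites in Col12a1 were 207, 483 and 1144 bp wide, that in Col8a1 244 bp and that in Col16a1 183 bp. Outside the list, Col4a4 had 2 sites and Col4a3, Col2a1, Col19a1, Col22a1 and Col28a1 had 1 each. Matrix glycoproteins and laminins had 1 site each in 9 of 29 genes, or 66.5 sites per Mb (30.4 to 126.2). Among these, the site in Tnxb was 1364 bp wide and that in Ltbp2, which also held a CTCF match, 1064 bp, while that in Fn1, the fibronectin gene, was 254 bp wide.

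Cytoskeleton and adhesion genes had 21 sites in 9 of 26 genes, or 140.1 sites per Mb (86.7 to 214.2). Of these, 11 were in Ahnak and Plec. The others included sites in Dst and Macf1, which encode linkers of microtubules and actin, and in Myh9, Tln1, Tns3 and Itga5. Plec, Myh9 and Itga5 lie on chromosome 15, which held 105.9 sites per Mb of coding exon over all its genes. Some of the Ahnak sites matched another place in the genome at 90% identity or more. The part of either in the density of this list was not tested. The site in Tns3, a tensin gene, was 938 bp wide and held an AP-1 match. That in Myh9, the gene of a nonmuscle myosin heavy chain, was 860 bp wide and held a CTCF match.

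The KMT2 complexes methylate histone H3 at lysine 4 and contain ASH2L. Of 14 genes of these complexes with coding bases more than 1 kb from a start, Kmt2a and Kmt2d, which encode catalytic subunits, had a coding-exon site. Kmt2d had sites of 369 and 412 bp within its coding exon 31 of 54, which is 1815 bp long, and a site of 202 bp across the start of the next exon. Kmt2a had sites of 606 and 927 bp that held coding exons 16 and 21 of 36. The list gave 74.6 sites per Mb (24.2 to 174.1), an interval that includes the value for all genes. Fkbp1a and Esr1, whose coding sequences are related to parts of the constructs these cells carry, had no coding-exon site of this kind. In Esr1, a site of 260 bp lay wholly within a coding exon at chr10:4712414-4712673 but covered a transcript start.

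Genes that mark cell types were checked as well. Among those with coding bases more than 1 kb from a start, a promoter site was found for 12 of 13 fibroblast markers, 10 of 10 neuronal, 5 of 8 epithelial, 4 of 10 blood and 4 of 10 skeletal muscle markers, compared with 77.2% (76.6 to 77.8) of all such genes. Coding-exon sites were found in 3 fibroblast markers (Col1a1, Col3a1 and Fn1), 1 neuronal, 2 blood, 3 muscle and 0 epithelial markers. Per Mb of coding exon this was 178.9 sites (58.1 to 417.4) for the fibroblast and 44.5 (17.9 to 91.8) for the muscle list, compared with 54.1 for all genes, and the intervals of the neuronal, blood and epithelial lists also included 54.1. The 5 sites of the fibroblast list were all counted above in the collagen and matrix lists, and 3 of them lay in Col3a1. The blood markers were Itgam, an integrin gene whose exon is also annotated to Gm49368, and Spi1, a transcription factor gene whose last coding exon lay under a site of 1022 bp. Neither had a promoter site.

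The 10 widest sites measured 2074 to 2609 bp. The widest was in Ano8, a membrane protein gene, over the last coding exon of 534 bp, with a GC content of 80.5% at its middle. It was followed by sites in Macrod1 (2559 bp), Tab1 (2352 bp), Nkpd1 (2346 bp) and Nfe2 (2208 bp). Sites in Mcf2l, Prr7, Cacna1c, Map3k5 and Mpp7 completed the group. Of these 10 sites, those in Ano8, Tab1, Nkpd1 and Nfe2 lay over the last coding exon.

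By chromosome, the density had a median of 48.7 sites per Mb of coding exon and ranged from 39.7 on chromosome 12 to 105.9 (86.6 to 128.1) on chromosome 15. Chromosome 15 held 105 of the sites, 8.08% of them, with 4.14% of the coding bases and 7.05% of the other distal sites. Its density per Mb of coding exon was 2.04 times that of the other chromosomes together (1.67 to 2.49). Set against distal sites, chromosome 15 was not the highest. Coding-exon sites were 1.20% of its distal sites, compared with 1.04% of all distal sites and 1.62% on each of chromosomes 7 and 11. The density of other distal sites per Mb was not computed by chromosome. Whether the excess on chromosome 15 is particular to coding exons was therefore not tested. Chromosome 10 was next in density, at 70.4 sites per Mb (56.1 to 87.1), though coding-exon sites were 0.914% of its distal sites. Of its 84 sites, 51 lay from 75 Mb on, but the coding bases of that stretch were not counted.

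**Figure D5:**
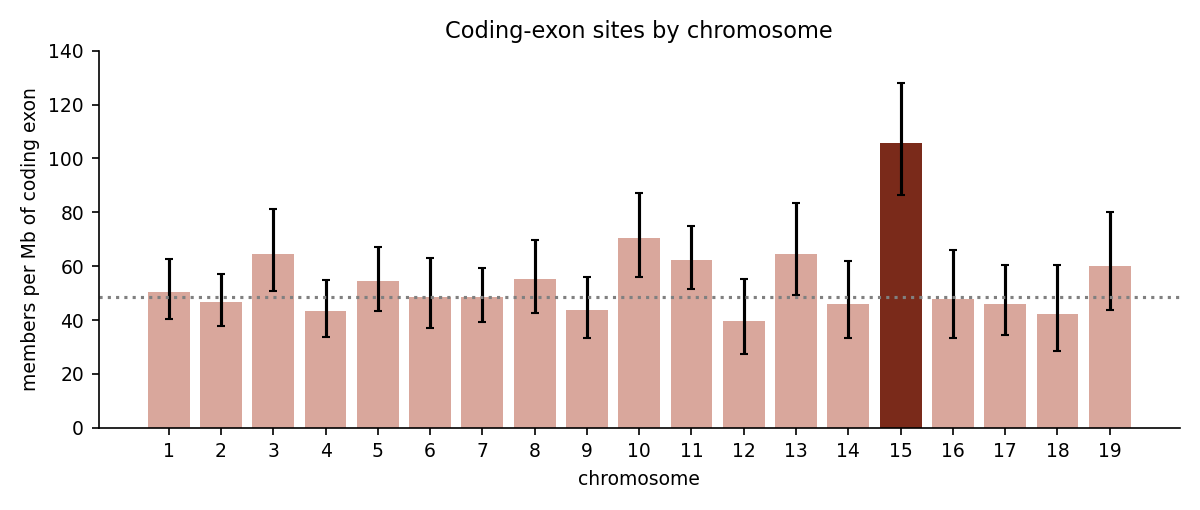
Sites per Mb of coding exon (y axis) on chromosomes 1 to 19 (x axis), with 95% Poisson intervals. The dotted line is the median over chromosomes, 48.7. Chromosome 15 stands at 105.9 and its interval begins at 86.6. Coding-exon sites were 1.20% of the distal sites of chromosome 15 and 1.04% of all distal sites.

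Coding exons can resemble other loci, which bears on where reads are placed. For 60 sites (4.62%, 3.61 to 5.90), the middle 200 bp matched another place in the genome at 90% identity or more over at least 150 bp, and for 24 of them at 98% or more. These included Ahnak and Mki67, with repeats inside the gene, and members of families such as Vmn2r80, Olfr376, Pcdhb14, Clca3a1 and Apol7b. The positions of such sites are uncertain. At the distance limit of the selection, the closest sites taken were 1004 bp (Ube2ql1) and 1006 bp (Kif19a) from a start, and the closest left out were 999 bp (Kcnk7) and 997 bp (Spats2l) away.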

How the data were processed

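ATAC-seq was performed on 10 libraries in 5 groups of 2. According to the methods of the study, the authors used Trim Galore for trimming and BWA for alignment to mm10, filtered them with SAMtools following ENCODE recommendations, merged replicates with Picard, identified narrow peaks with MACS and normalized signal with DESeq2. Versions, the peak threshold, any shift of read ends for Tn5, blacklisting and the joining of samples are not given in the sources used here, and each could change the number and edges of sites. The extraction text in the labels describes chromatin immunoprecipitation, and the ATAC protocol was taken from the study's methods.

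The deposited list holds positions only (chromosome, start, end), with no count, score or other value from the authors, so depth is unknown and no test between groups was made. Starts were read as counted from 0 and are printed counted from 1. The smallest step between neighbouring sites was 1 bp, and 0 sites ended beyond a chromosome of GRCm38. Transcript starts and coding exons came from the comprehensive GENCODE M21 annotation. The middle of a site assigned it to a class, in the order coding exon, other exon of a coding gene, exon of a noncoding gene, intron and intergenic. The principal transcript was the APPRIS principal one and, among these, the one with the longest coding sequence. Shares carry Wilson, differences Newcombe, densities exact Poisson, ratios of densities log-normal and medians order-statistic intervals. Copies were searched with BLAST+ 2.17.0. Other steps used Python 3.11.15, NumPy 2.4.6, pandas 2.3.3, SciPy 1.17.1 and Matplotlib 3.10.9. As a check of the code, 300 of 300 simulated sites centred on coding exons were recovered. So were 1000 of 1000 exact motif strings planted in sequence of A and T only. This does not measure how accurately the listed sites were assigned.

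Genes were named by rule: the genes with the most sites, the 10 widest sites, sites with both edges at an exon's boundaries, sites in the listed gene groups, the 5 with the most AP-1 matches, the 5 with a CTCF match nearest the middle, the 3 richest in CpG, and Fkbp1a and Esr1. The genes given for copies, for the distance limit and for collagens outside the list, and the sequences printed, were chosen after their values were seen. Some genes that the rule names are not reported here. The selection of sites and all gene lists were made with earlier results of these data known. Alternatives changed the annotation, the distance from starts, the coding overlap, the site width, merging of neighbours, the edge tolerance and the motif window. The division by promoter sites, the order along the coding sequence, exon GC, near-exon introns and copies were added after the data were seen.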

Additional observations from a re-analysis of the deposited data

Results flagged for a closer look

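Chromosome X was outside the comparisons above. There, 18 sites met the rest of the selection, which was 0.621% (95% Wilson interval 0.393 to 0.980) of the 2897 distal sites of that chromosome, compared with 1.04% (0.990 to 1.10) on chromosomes 1 to 19. It was singled out as a signal in data that the report does not use. No value per library was given, so no sample could be tested as standing apart from its group.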

How the results depend on the processing

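No paired analysis was possible because the sites carry no values of single libraries. Of 66 alternative values, 34 stayed within the interval of the reported value (for counts, within 1.5 times of it) and 32 moved outside it. A change of direction could be recorded only for the ratios of densities, of which 0 changed. Shares and medians were recomputed for coding-exon sites only, not for the groups they were compared with. The number of sites, 1299, was 676 when at least 50% of a site had to be coding, 5316 when 1 bp sufficed, and 581 among sites of 619 bp (the median of the list) or more. It was between 901 and 1727 under other distances, RefSeq gene models, principal transcripts, merging and removal of sites with a copy elsewhere. The median width was 372 bp with at least 50% of the site coding. Both edges matched an exon in 0.847% at 25 bp and 3.70% at 50 bp. AP-1 was matched in 18.2% of whole sites and 3.77% of middle 100-bp windows, and CTCF in 6.47% and 1.46%. The other 8 motifs gave 24 alternative values, of which 9 stayed within their interval, and those that moved did so mostly with the length of the window. Over whole sites the GC content was 52.3%, the CpG ratio 0.308 and the CpG-rich share 15.2%. Among sites of 619 bp or more, the CpG-rich share was 25.6%, the ratio of last to middle exons 1.97, and the factor between genes without and with a promoter site 2.31. Weighting every coding transcript over the middle gave 27.1% in the last exon. The cause of these shifts was not tested beyond the window lengths and overlaps that define them. The removal of sites with a copy and all alternatives of the last to middle, promoter and chromosome 15 ratios and of the CpG-rich share were chosen after the data were seen. The unknown depth limits how weak a site the list could hold.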

Other observations

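Of the 6349 merged coding exons more than 1 kb from a start that any site touched (4.67% of 135849, 4.56 to 4.79), at most 1299 held the middle of the site. The nearest other site lay at a median distance of 3363 bp (3005 to 3541) from coding-exon sites and 3753 bp (3719 to 3789) from other distal sites. Coding-exon sites lay a median of 5363 bp (4923 to 5836) from the nearest transcript start, and intronic sites 12150 bp (11997 to 12315).

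Ordered by width and divided into 4 groups of 324 or 325, coding-exon sites had AP-1 matches at the middle in 4.31% (2.58 to 7.10) of the narrowest group and in 11.1% (8.13 to 15.0) of the third group, and CTCF matches in 2.15% (1.05 to 4.38) and 7.10% (4.78 to 10.4). In the widest group the shares were 7.69% (5.26 to 11.1) and 1.54% (0.659 to 3.55).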
